A study of Mus musculus with 2 samples.

Results

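Mir191 and Mir425 are a pair of microRNA (miRNA) genes that lie next to each other on mouse chromosome 9 and are usually described as products of one host gene, Dalrd3. Both were chosen by name, and 2 of the 2202 miRNA genes counted are described here. Small RNA from the cerebral cortex of wild-type B6NCrl mice, described in the labels as female controls, was sequenced in 2 libraries that the labels number as biological replicates 1 and 2. The libraries form 1 group with no treatment, altered allele or second tissue. Age is given as not collected, as is the sex field itself, and both libraries cite the same donor record, so the spread between them may be technical in part. The question was how the levels of these neighbours compare within each library.

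A miRNA gene is transcribed as a long primary RNA. The nuclear enzyme Drosha cuts out a hairpin and the cytoplasmic enzyme Dicer cuts the hairpin to a short duplex, and 1 strand of the duplex is loaded into an Argonaute protein, where its seed (bases 2 to 8) pairs with target messenger RNAs. Neighbouring hairpins can come from a single primary RNA, so their primary supply can be shared while processing, loading and decay act on each hairpin separately. The protein encoded by Dalrd3 takes part in the methylation of arginine transfer RNAs.

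The RefSeq mature and hairpin sequences (build GRCm38.p6, which is mm10) are shown first because the 2 genes share a locus but not a targeting sequence. Capitals mark the seed.

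mmu-miR-191-5p: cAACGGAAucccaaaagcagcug

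mmu-miR-191-3p: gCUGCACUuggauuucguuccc

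mmu-miR-425-5p: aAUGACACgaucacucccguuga

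mmu-miR-425-3p: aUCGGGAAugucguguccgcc

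The 4 seeds differ from each other. Among 1679 mature mouse miRNAs in the RefSeq table, no other carried the seed of miR-191-5p, miR-191-3p or miR-425-3p, and 1 other, miR-489-3p, carried that of miR-425-5p. The 2 genes are therefore not members of one seed family. In the hairpins, which follow, capitals mark the 5p and 3p arms. The deposited counts are per hairpin gene, so they do not separate the arms.

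Mir191 hairpin: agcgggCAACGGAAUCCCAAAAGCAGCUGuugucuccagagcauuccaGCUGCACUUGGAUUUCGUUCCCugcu

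Mir425 hairpin: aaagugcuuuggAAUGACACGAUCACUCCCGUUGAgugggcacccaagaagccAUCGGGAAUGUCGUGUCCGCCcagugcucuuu

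The Mir191 hairpin (ENSMUSG00000105497.1) is 74 nt long and lies on the plus strand at chr9:108568319-108568392 in mm10. The Mir425 hairpin (ENSMUSG00000065579.1) is 85 nt long and lies downstream on the same strand at chr9:108568777-108568861. A gap of 384 nt separates them. Their base composition was nearly the same, with 54.1% G and C in each hairpin. Folding with RNAfold placed 56 bases in pairs in either hairpin. The predicted energy was -0.473 kcal/mol per nt for Mir191 and -0.373 kcal/mol per nt for Mir425, against a median of -0.369 over the 2202 annotated precursors. Neither hairpin shared a run of 18 nt with another counted gene on its own strand.

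The host gene depends on the annotation. In RefSeq, the Dalrd3 gene runs from 108567484 to 108572773 and contains both hairpins, 835 nt and 1293 nt from its start. In GENCODE M21, the annotation used for the counts, Dalrd3 starts at 108569886, which leaves 1024 nt between the end of Mir425 and that start. There both hairpins lie in 4833445I07Rik, a long noncoding gene at 108567533 to 108569174 on the same strand. Its single-exon transcript 4833445I07Rik-201 holds both hairpins in its exon. Its spliced transcript 4833445I07Rik-202 holds Mir191 in its intron and ends before Mir425. Placement inside Dalrd3 thus holds in RefSeq and not in M21, and no host RNA was measured in these libraries.

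**Figure D1:**
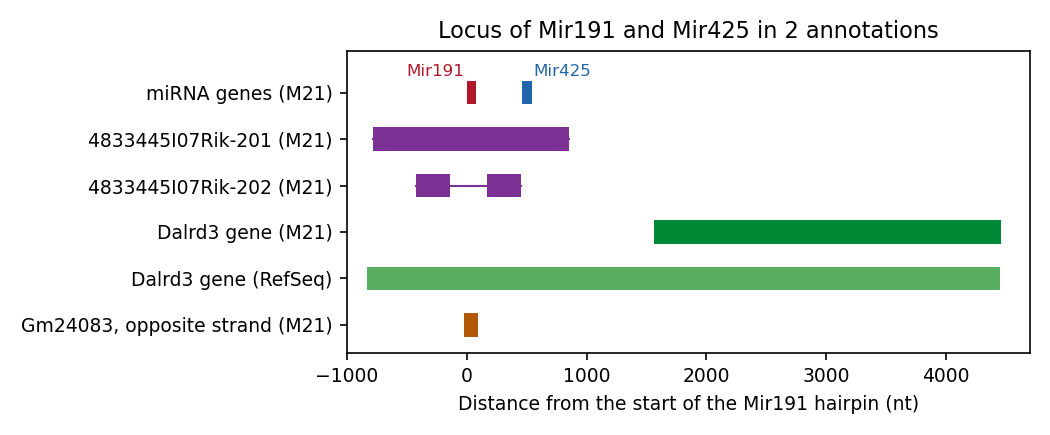
Map of the locus, with distance from the start of the Mir191 hairpin in nt on the horizontal axis and 1 row per annotated feature; thick bars are genes or exons and the thin line is an intron. RefSeq places both hairpins within Dalrd3, while GENCODE M21 places them in 4833445I07Rik, with Dalrd3 starting downstream of Mir425.

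Another miRNA gene is annotated at the locus. Gm24083, on the minus strand at 108568295 to 108568414, covers the whole Mir191 hairpin. It had 0 sense counts in both libraries, which allows up to 0.677 CPM (counts scaled to a library total of 1000000) in replicate 1 and 0.429 CPM in replicate 2 (3 counts; counting error only). In the opposite-strand column Gm24083 was credited with 22725 and 72491 counts, the same numbers as the sense counts of Mir191, so these are the Mir191 reads seen from the other strand. Mir425 has no such overlap and had 0 and 3 opposite-strand counts.

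The libraries differed in depth and in some cell type markers. Replicate 1 held 4429633 sense counts in miRNA genes and replicate 2 held 6985784. Of all reads, 43.9% and 47.9% mapped to more than 1 locus and were counted for no gene. All 16 genes of a neuron-enriched list had counts, 13 of them at 2 CPM or more in both libraries. The genes below that level were Mir124a-1, Mir124a-2 and Mir124a-3. Reads that map to more than 1 of these loci are counted for none, so their low counts do not give the level of miR-124. The list held 8.04% and 9.63% of the sense counts, which goes with the cortex label. It was chosen with earlier results of these data known. Mir132 alone, at 42570 and 61586 CPM, made up the larger part of these shares. The 3 genes of the oligodendrocyte list held 0.711% and 0.785%. An epithelium list of 7 genes took 1.28% and 0.206%, and the 3 genes of the Mir183 cluster, known from sensory organs, held 1.47% and 0.163%. In the test between libraries given below, 6 of the 7 and all 3 of the cluster were called higher in replicate 1. Of all 438 genes tested, 38 were. Mir203, of the epithelium list, went the other way, with 46.7 and 68 CPM. A choroid plexus and ependyma list of 5 genes held 0.117% and 0.247%. The liver list held at most 0.00535%, with 3 of its 4 genes at 2 CPM or more in both libraries. Of 7 muscle genes, 5 had no count and 1 reached that level, Mir206 at 19.9 and 29.5 CPM. Reads that mapped to more than 1 locus are left out, so an absent count need not mean an absent miRNA.

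Mir191 was an abundant cortical miRNA gene and Mir425 a moderate one. Mir191 had 22725 sense counts in replicate 1 and 72491 in replicate 2, which is 5130 CPM (exact 95% Poisson interval 5064 to 5197) and 10377 CPM (10302 to 10453), or 0.513% and 1.04% of all miRNA counts. Mir425 had 5721 and 9436 sense counts, which is 1292 CPM (1258 to 1325) and 1351 CPM (1324 to 1378), or 0.129% and 0.135%. Mir191 was the higher of the 2 genes in both libraries, and its lower library still lay above both libraries of Mir425. The mean was 7754 ± 3710 CPM for Mir191 and 1321 ± 41.9 CPM for Mir425 (SD, n = 2), so the SD was 47.8% of the mean for the first and 3.17% for the second. Together the 2 genes took 0.642% of miRNA counts in replicate 1 and 1.17% in replicate 2. In bulk tissue, fewer cells of a type and less RNA per cell cannot be told apart.

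**Figure D2:**
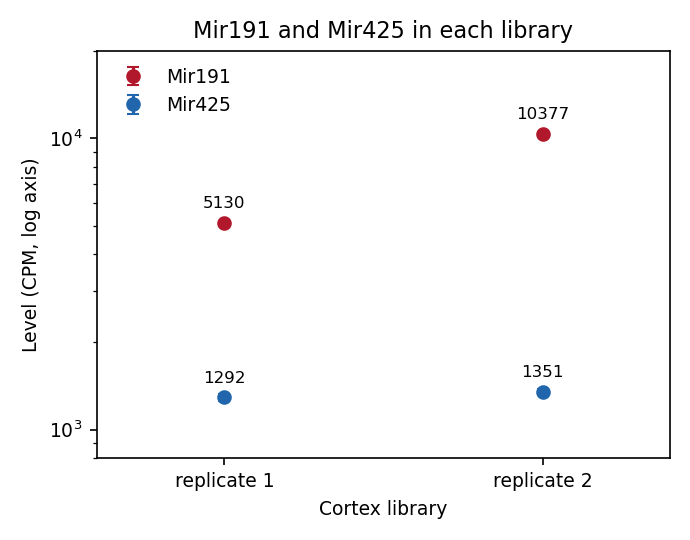
Level of Mir191 (red) and Mir425 (blue) in CPM on a log axis for each cortex library; bars are exact 95% Poisson intervals of the counts and are mostly smaller than the points. Mir191 sits at 5130 and 10377 CPM, while the points of Mir425 sit at 1292 and 1351 CPM.

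Among all 2202 genes Mir191 ranked 35th by CPM in replicate 1 and 21st in replicate 2, and 28th by its mean. In the order of means it stood between Mir99b and Mir151. Mir99b, which shares a cluster with Mirlet7e, had 10306 and 5636 CPM, and Mir151 had 8725 and 6545 CPM. Both ranges overlap that of Mir191, so this order does not exceed the spread between libraries. In all, 18 genes had both values above the higher value of Mir191, and 24 overlapped its range. Mir425 ranked 90th and 79th, and 84th by its mean, between Mir182 (2676 and 252 CPM) and Mir455 (1479 and 1055 CPM). Its range was overlapped by 23 genes, and 72 lay above it.

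The genes nearest to each member in the plane of the 2 libraries' log2(CPM + 1) values, among genes with a mean of 100 CPM or more, were taken over 2 points only and are a description. Mir674 was nearest to Mir191, at a distance of 0.45, with 3807 and 9465 CPM. It was followed by Mir487b, of the imprinted Dlk1-Dio3 array, with 7652 and 10631 CPM, and by the neuronal Mir128-1 with 6979 and 7805 CPM. Mir674, like Mir191, was more than 2 times as high in replicate 2 as in replicate 1, while Mir487b and Mir128-1 were closer to level. Mir93, of the cluster in Mcm7 that also holds Mir25 and Mir106b, was nearest to Mir425, at a distance of 0.14, with 1172 and 1352 CPM. Next came Mir181b-2 with 1502 and 1589 CPM and Mir455.

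The share of the 2 genes' counts that came from Mir191 was 79.9% in replicate 1 (exact 95% Clopper-Pearson interval 79.4 to 80.4) and 88.5% in replicate 2 (88.3 to 88.7). For each Mir425 count there were 3.97 Mir191 counts in replicate 1 (3.86 to 4.09) and 7.68 in replicate 2 (7.52 to 7.85). Both values come from within a library, so depth and scaling between libraries do not enter them. The geometric mean was 5.52 times, with a log2 ratio of 2.47 ± 0.67 (SD, n = 2). Per base of hairpin length the ratios were 4.56 and 8.82. The level of Mir191 was higher in 2 of 2 libraries. An exact paired permutation test over 2 libraries gave a two-sided p = 0.5, the smallest p that it can give, so it cannot pass 0.05.

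The ratio itself differed between the libraries. It was 1.93 times as large in replicate 2 as in replicate 1 (95% interval of the sample odds ratio 1.87 to 2.01), a log2 change of 0.95. In Fisher's exact test (two-sided, Benjamini-Hochberg over 89 neighbour pairs) the adjusted p was 1.69e-268, far outside counting error. This test compares 2 libraries and their reads, not conditions. A call also needed a change of at least 2 times, which the pair missed with an interval that includes 2, and at a limit of 1.5 times it was called.

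Those 89 pairs were all next neighbours on one strand, at most 10 kb apart, with both genes at 2 CPM or more in both libraries. They are not separate loci. Many are successive pairs along 1 array, above all the imprinted Dlk1-Dio3 array, so a gene can be in more than 1 pair. The pairs other than Mir191 with Mir425 drew on 130 genes. Changes of this kind were common among them. At 2 times, 29.2% of the pairs (26 of 89) were called, at 1.5 times 51.7%, and on the adjusted p alone 78.7%. The median change over the pairs was 1.61 times, and 30 of the 89 pairs, Mir191 with Mir425 among them, changed at least as much as this pair did. Of the 45 pairs in which each gene averaged at least 100 CPM, 18 did, with a median of 1.69 times. Among the 59 pairs within 1 kb, 21 did. The share called is thus large, and the change at this locus stood in the upper part of the pairs without being extreme.

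The gap between the levels of the 2 genes was not unusual either. The geometric mean ratio of neighbours, taken as the higher over the lower, had a median of 7.29 times over the 89 pairs. Of these pairs, 52 were as far apart as Mir191 and Mir425 or farther, this pair included. Of the 45 pairs in which each gene averaged at least 100 CPM, 20 were, so this pair lay above their median. Only 55 of the 89 pairs were free of genes that share a run of 18 nt with another counted gene. Reads placed at several loci are in no gene's count, so ratios in the other pairs may miss reads. Their part in the median was not tested. The same gene was the higher one in both libraries in 83 of the 89 pairs. The upstream gene, as Mir191 is here, was higher in both libraries in 49 pairs and the downstream gene in 34.

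**Figure D3:**
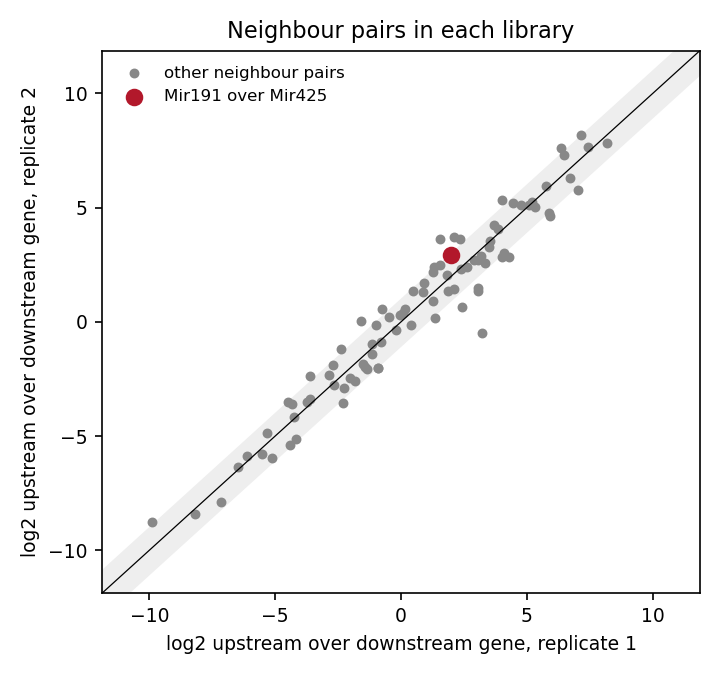
Log2 of the upstream over the downstream gene's count in replicate 1 (horizontal) and replicate 2 (vertical) for 89 neighbour pairs; the line is equality and the grey band a change of up to 2 times. Mir191 over Mir425 (red) lies just inside the upper edge of the band, with a log2 change of 0.95.

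Single pairs set beside it are examples and do not span the range of all pairs. Ratios here are the upstream over the downstream gene, and the first 3 pairs are those nearest in summed level. Mir99a with Mirlet7c-1 had ratios of 27.3 and 34.3, a change of 1.26 times. Mir487b with Mir539 had 142 and 287, a change of 2.03 times that was called. Mir377 with Mir541 had 0.0284 and 0.0159, a change to 0.559 times. In the epithelial pair of Mir200c and Mir141, Mir200c was at 6184 and 470 CPM and Mir141 at 538 and 40.7 CPM. Both were lower in replicate 2, and their ratio was 11.5 in each library (adjusted p = 0.974 in Fisher's exact test). Mir212 with Mir132, activity-induced neuronal miRNAs, had ratios of 0.0475 and 0.0237, a change to 0.5 times that fell just short of a call. Mir23a with Mir27a had 60.9 and 24.7 and was called. Mir99a with Mirlet7c-1, Mir487b with Mir539 and Mir23a with Mir27a each hold a gene that shares a run, as defined above, with another counted gene. Ratios in these pairs may therefore miss reads, and the size of that effect was not tested. The other pairs named here, like Mir191 with Mir425, are free of such genes.

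The 2 genes contributed unequally to the change of their ratio. Scaled with TMM (edgeR's trimmed mean of M values), Mir191 was 2.21 times as high in replicate 2 (exact 95% interval 2.17 to 2.24), a log2 ratio of 1.14. Mir425 was 1.14 times as high (1.10 to 1.18), a log2 ratio of 0.19. In the exact two-sided binomial test over 438 detected genes, with Benjamini-Hochberg adjustment, the adjusted p of Mir191 was below the smallest number double precision holds. That of Mir425 was 8.04e-15. At a ratio of at least 2 times Mir191 was called higher in replicate 2 and Mir425 was not called. The share of detected genes called higher in replicate 2 was 9.36% (41 of 438), and 18% were called in either direction. On the adjusted p alone, which both members passed, 63.9% of the detected genes were called. With library totals, which move the median log2 ratio of all detected genes from -0.03 to -0.16, Mir191 was 2.02 times as high and Mir425 1.05 times. The calls then numbered 29 toward replicate 2 and 55 toward replicate 1, in place of 41 and 38. With the linear trend on precursor GC removed, an alternative chosen after seeing the data, 27 and 33 were called.

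Among the 198 genes that averaged at least 100 CPM, of which 11.6% were called higher in replicate 2, the middle 50% of log2 ratios ran from -0.53 to 0.58. Mir425 lay inside that range and Mir191 outside it, with 14 of the 198 at or above it, itself included. Across the detected genes the log2 ratio fell by 0.35 for each 10 points of precursor GC. Both hairpins hold 54.1% G and C, so removing that trend could hardly move the change of their ratio, which stayed at 0.95. The mature arms differ more, with 52.2% and 54.5% for miR-191-5p and miR-191-3p and 47.8% and 61.9% for miR-425-5p and miR-425-3p. A trend on the arms was not tested. The epithelium, Mir183 cluster and choroid plexus lists, whose shares are given above, also differed between the libraries. A microglia and leukocyte list held 0.135% and 0.195% and a vascular list 0.429% and 0.543%, with no gene of either called. With the epithelium list, the Mir183 cluster and Mir375 left out of the scaling, also chosen after seeing the data, the log2 ratio was 1.12 for Mir191 and 0.17 for Mir425. The part of those cell types in the level of Mir191 was not tested. The labels cite a different adapter trimming document for each library, so trimming and replicate cannot be told apart.

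**Figure D4:**
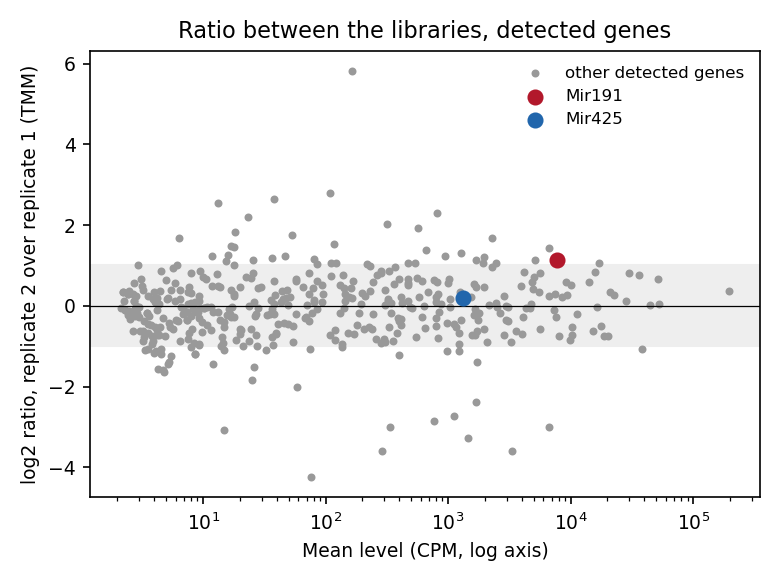
Log2 ratio of replicate 2 over replicate 1 (TMM) against the mean level in CPM (log axis) for the 438 detected genes; the grey band marks ratios below 2 times. Mir191 (red) lies above the band at 1.14 and Mir425 (blue) near 0 at 0.19.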

How the data were processed

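The authors deposited 1 table of raw read counts per library, with 3 count columns (either strand and each strand) for 2202 miRNA genes after 4 summary lines. Per the file headers and readme text deposited with them, the assembly was mm10 and the annotation M21. For the aligner and the counter, names and versions were not given in the sources used here. All 2202 identifiers matched GENCODE M21. The third column of the file held the sense counts. Summary lines stayed out of library totals; reads placed at several loci are in no gene's count. Counts were scaled to CPM of all gene lines. Genes at 2 CPM or more in both libraries were detected.

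Between libraries, TMM factors (edgeR 4.0.16) or, as alternatives, DESeq2 1.42.0 size factors and library totals were used, with an exact binomial test per gene and Fisher's exact test per neighbour pair (scipy 1.17.1), and 0.5 counts added for log2 ratios. A call needed both a ratio of at least 2 and an adjusted p under 0.05. With 1 group, no edgeR group test applied. Reads carry no molecular identifiers, so intervals cover counting error only. Folding used RNAfold 2.7.2. Both tests were tested on simulated counts. The members and lists were chosen with earlier results of these data known. Named genes were the members, the third gene of their locus, the 3 nearest genes to each and the genes next in rank. They also included the 3 pairs nearest in summed CPM and 3 fixed pairs. The genes next in rank, the Mir124a genes, Mir203, Mir206, Mir449a, Mirlet7e, Mir378a and Mir375 were added after values were seen. Mir139 is named only as a gene left out of the totals in an alternative.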

Additional observations from a re-analysis of the deposited data

How the results depend on the processing

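The column of counts mattered most. In the either-strand column Mir191 had 0 counts in both libraries, since its reads also overlap Gm24083, so its mean level was 0 CPM, its ratio to Mir425 was 0 and its change could not be computed; Mir425 was at 1395 CPM. Without Mir139 in the totals, Mir425 was at 1648 CPM. Single libraries gave 5130 to 10377 CPM for Mir191, 1292 to 1351 CPM for Mir425 and 3.97 to 7.68 for their ratio; without replicate 2 the level of Mir191 was 1.51 times lower than the mean. The log2 change of the ratio, 0.95, was called only at a limit of 1.5 times, where 46 pairs were called in place of 26. Among genes with a mean of 100 CPM or more, 16 of 45 pairs were called, a larger share than the 26 of 89. Without genes that share a run of 18 nt, 14 of 55 pairs were called, a smaller share. At 1.5 times, 171 genes were called in place of 79. Mir191 kept its call and Mir425 its lack of one in every other alternative that gave them a value, with log2 ratios from 1.02 to 1.24 and from 0.06 to 0.29. No paired analysis was possible because there is 1 group, so no groups share replicate numbers; the paired permutation test compares the 2 genes within libraries. Leaving out a replicate removes any comparison between libraries.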

Other observations

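How reads are assigned to strands decides whether Mir191 is seen at all. In the either-strand column, 22 genes that were detected in the sense column had 0 counts in both libraries. Mir191 was second among them by mean level, after Mirlet7e (19483 and 22673 CPM) and before Mir378a (3128 and 2837 CPM). Together the 22 genes took 3.96% of sense counts in replicate 1 and 4.54% in replicate 2. The sense counts of Mir191 came to 10.4% of the 217526 reads listed as ambiguous in the either-strand column of replicate 1 and to 18.4% of the 393132 in replicate 2. The gene annotated opposite to it, Gm24083, had no sense count in either library.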
